A study of Mus musculus with 14 samples.

Results

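The clustered protocadherins are a family of neuronal cell-surface proteins encoded by 3 neighbouring gene clusters, alpha, beta and gamma, on mouse chromosome 18. They were chosen by gene symbol (Pcdha, Pcdhac, Pcdhb, Pcdhga, Pcdhgb or Pcdhgc followed by a number) in the GENCODE M21 annotation of GRCm38, which gave 58 gene identifiers and 57 symbols. Of these, 24 had a row among the 41381 genes of the deposited table, namely all 22 beta genes, 1 alpha row and 1 gamma row. In this granule neuron progenitor population the gamma row was the most abundant, at 270 ± 47.2 TPM (a level per unit of transcript length, scaled to the same total in every library; SD, n = 14 libraries), the 22 beta genes together summed to between 63.4 and 93.9 TPM, and the alpha row stood at 30.1 ± 3.83 TPM. None of the 23 members that could be tested was called between the genotypes, that is, had an adjusted p under 0.05 in a linear model (limma) fitted over all expressed genes, of which 2.68% were called in Hom against WT, 0.00577% in Het against WT and 0.427% in Hom against Het. The single call was between the sequencing batches, in the gamma row.

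Clustered protocadherins bind the same isoform on another cell and help a neurite tell its own branches from those of its neighbours. Each neuron uses a subset of the variable isoforms, chosen largely at random from separate promoters, and this choice depends on the DNA-binding protein CTCF, on cohesin-mediated contacts with distant enhancers, and on DNA methylation. In the alpha and gamma clusters a variable first exon is spliced to constant exons that all members of the cluster share, whereas most beta genes consist of a single exon. The C-type members, found at the end of the alpha and gamma clusters, are used more uniformly between neurons than the other variable isoforms. RNA from a whole population gives the sum over its cells and does not show the choice made by any single cell, and fewer cells expressing a gene and less RNA per cell cannot be told apart in it.

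The libraries came from granule neuron progenitors (GNPs, proliferating precursors in the cerebellum's external granule layer) purified from mouse pups at postnatal day 7 by density gradient, without sorting on a marker, and without regard to the sex of the pups. The 5 WT libraries were labelled Chd7 wild type or Atoh1-Cre negative, and the study's wild-type mice carried 2 floxed Chd7 alleles (f/f) without Cre. The 5 Het libraries were labelled Chd7 het mutant or Atoh1-Cre::Chd7 f/+, and the 4 Hom libraries Chd7 hom mutant or Atoh1-Cre::Chd7 f/f. Chd7 encodes an ATP-dependent chromatin remodeller, and Atoh1-Cre acts in the granule cell lineage, with less complete removal of Chd7 in the posterior lobe. None of these groups had Cre with intact Chd7, so in the contrasts with WT an effect of Cre itself cannot be told apart from that of the deleted allele, whereas Het and Hom both carry Cre. Libraries WT 1 to 3, Het 1 to 3 and Hom 1 and 2 formed sequencing batch 1 (n = 8), and WT 4 and 5, Het 4 and 5 and Hom 3 and 4 formed batch 2 (n = 6). The strain was given as C56Bl6/J for the batch 1 libraries other than Het 3, and as C57BL/6 for Het 3 and the batch 2 libraries, so strain label and batch differ in 1 library only.

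A few features of the libraries bear on every comparison. The gene-level TPM of the targeted gene did not follow the labels in both batches. Chd7 was at 176 ± 62.3 TPM in WT (SD, n = 5), 157 ± 17.2 in Het (SD, n = 5) and 158 ± 26.3 in Hom (SD, n = 4), and its log2 change in Hom against WT was 0.41 in batch 1 alone and -0.77 in batch 2 alone. Log2 changes here and below are differences in log2(TPM + 1), with batch taken into account where both batches enter. Gene-level TPM counts reads over the whole gene, the floxed part was not measured on its own, and the study's own assays of Chd7 in these mice were not analysed here. Directions below are those of the libraries labelled WT, Het and Hom. Granule lineage markers were high in every library, with a summed level of 3310 to 4710 TPM over 8 genes, and all 8 were detected. Of the 8, 1 was called in Hom against WT, Neurod1 (log2 change -0.55, limma adjusted p 0.0116), where 2.68% of all genes were, and 0 in Het against WT. Between the batches 4 of the 8 were called, where 13.5% of all genes were. Markers of other cells varied between libraries. In the inhibitory interneuron, oligodendroglial, microglial and meningeal lists, the sums of WT 1 to 3 lay within the range of the other libraries. In 3 lists WT 1 to 3 stood apart from WT 4 and 5 and from Hom, and Het 3 was nearest to them or lay beyond them. The sum over 8 Purkinje cell genes was 147 to 191 TPM in WT 1 to 3, 43.5 to 48.8 in WT 4 and 5 and 32.6 to 49.1 in Hom. That over 9 astroglial genes was 1210 to 1900, 425 to 900 and 352 to 713, and that over 7 endothelial genes 27.7 to 37.7, 127 to 225 and 118 to 366. In Het the Purkinje cell, astroglial and endothelial sums were 34.5 to 89.7, 607 to 1180 and 21.1 to 483 TPM. Het 3 had 89.7, 1180 and 21.1 TPM. Of the genes of these 3 lists 1 was called in Hom against WT with limma, Pcp4 of the Purkinje cell list (log2 change -1.73, adjusted p 0.00914), where 2.68% of all genes were. At an unadjusted limma p under 0.05 in Hom were 2 of 7 tested Purkinje cell, 6 of 9 astroglial and 6 of 7 endothelial genes, against 14.9% of all genes. The median log2 changes of these lists in Hom were -0.94, -0.86 and 1.52. In Het against WT 0 of these genes were called, and 3 had an unadjusted p under 0.05, against 6.08% of all genes. Among the Purkinje cell markers Skor2 had a mean of 0.0964 TPM and Pcp2 was at 0 in its lowest library. The part of these cells in the results that follow was not tested except where a value is given.

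The beta cluster is the only cluster that could be read gene by gene. Its 22 genes lie in a row on the plus strand of chromosome 18 between positions 37264938 and 37524479 of GRCm38, a stretch of 259542 bp between the alpha and gamma clusters. All but 1 of them, Pcdhb1, reached 1 TPM in 4 libraries or more and were tested, and 20 or 21 were at that level in any single library. Pcdhb1, the first gene of the row, had a mean of 0.0114 TPM and a highest value of 0.06 TPM, was listed at 0 in all 4 Hom libraries and in 3 libraries of each of the other genotypes, and was not tested. Per unit of transcript length, Pcdhb17 had the highest level of the row in all 14 libraries. WT 1 to 5 had 9.9, 9.54, 10.92, 10.71 and 8.25 TPM of it, Het 1 to 5 had 9.97, 11.87, 9.91, 10.8 and 12.96 TPM, and Hom 1 to 4 had 8.38, 12.73, 10 and 12 TPM. All 3 groups had libraries between 9.91 and 10.92 TPM. Above 10.92 TPM lay Het and Hom libraries only, and below 9.91 TPM lay WT and Hom libraries only. Pcdhb17 exceeded the second gene, Pcdhb20, in all 14 libraries, by 3.66 ± 1.19 TPM (SD of the difference within libraries).

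**Figure D1:**
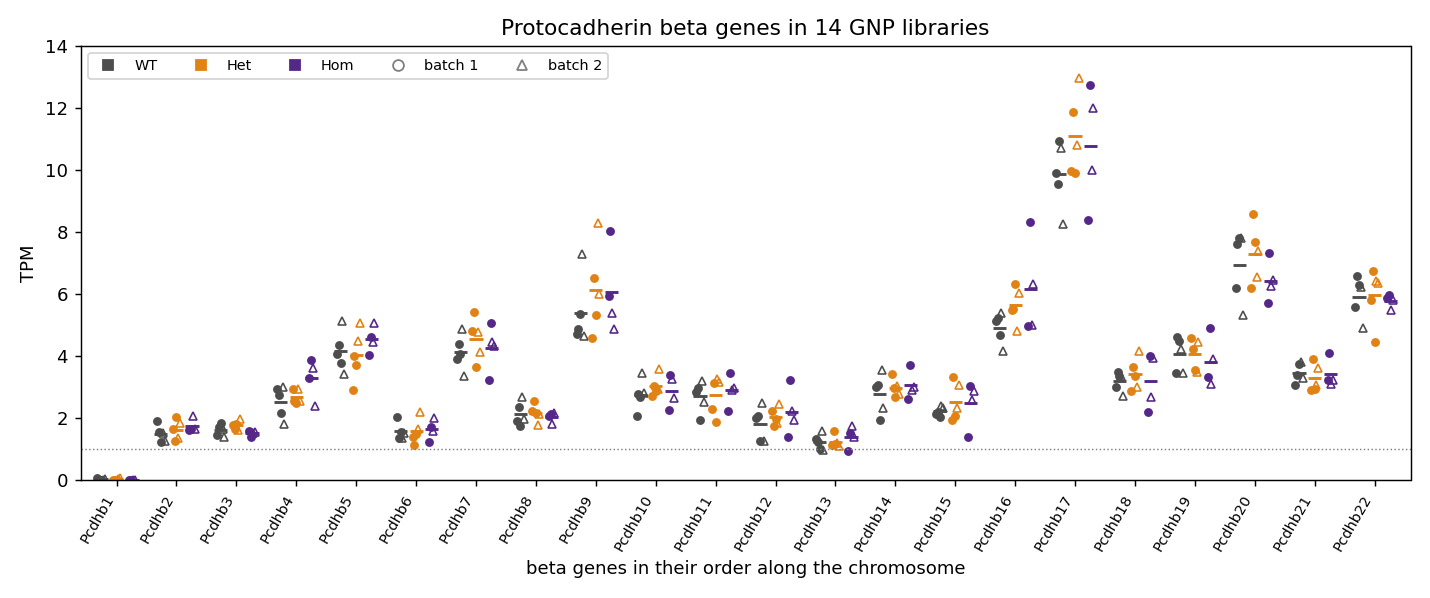
TPM of the 22 protocadherin beta genes, in their order along the chromosome, in each of 14 libraries; colours are the genotype labels, circles batch 1 and triangles batch 2, horizontal bars the genotype means, and the dotted line a TPM of 1. Pcdhb17 stands highest with a mean of 10.6 TPM, Pcdhb1 lies at the bottom with 0.0114, and every pair of genotypes overlaps at every gene except Het and Hom at Pcdhb3.

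Below Pcdhb17 the levels fell off gradually. Pcdhb20 had a mean of 6.91 ± 0.949 TPM (SD, n = 14) and a range of 5.31 to 8.58, and Pcdhb22 a mean of 5.88 ± 0.637 and a range of 4.44 to 6.74. Pcdhb9 followed at 5.84 ± 1.25 TPM and Pcdhb16 at 5.51 ± 1.01 TPM, and neither differed from the gene before it in this order by more than the spread between libraries. At the other end Pcdhb13 had the lowest mean of the tested genes, 1.26 ± 0.258 TPM, and was above a TPM of 1 in 11 of 14 libraries. Pcdhb6 (1.57 TPM), Pcdhb2 (1.6 TPM) and Pcdhb3 (1.62 TPM) came next. Over the 21 pairs of genes that were neighbours in the order of mean level, the difference was larger than its SD between libraries for 5 pairs and smaller for 16. The 5 pairs were Pcdhb17 and Pcdhb20, Pcdhb20 and Pcdhb22, Pcdhb16 and Pcdhb7, Pcdhb19 and Pcdhb21, and Pcdhb13 and Pcdhb1. This SD is the spread of single libraries and not the error of a mean, so a smaller difference does not show equal levels. Among the 16, Pcdhb11 was above Pcdhb15 in 11 of 14 libraries (0.371 ± 0.393 TPM), but Pcdhb4 was above Pcdhb11 in only 7 (0.0293 ± 0.583 TPM). The order of the means was not tested. Several of these genes were singled out after their values were seen.

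Levels were higher toward the gamma end of the cluster. The last 7 genes, Pcdhb16 to Pcdhb22, held 50.8% ± 2.22 (SD, n = 14) of the summed beta TPM, with a median level of 5.51 TPM and a range of 3.26 to 10.6. The first 15 genes had a median of 2.39 TPM, and Pcdhb9 was the highest of them. The Spearman correlation between mean TPM and order along the cluster was 0.60 over 22 genes and 0.54 over the 21 genes without Pcdhb1. This is a description across genes that were measured in the same libraries, and the division into first and last genes was made after the levels were seen.

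The beta genes are close paralogs, and reads that match several of them must be divided by the quantification. Of all 50-base windows of each annotated beta gene, the share not found in any other gene of the deposited table ranged from 88.0% for Pcdhb12 to 100% for Pcdhb1. It was 96.4% for Pcdhb17, 94.5% for Pcdhb20 and 91.5% for Pcdhb22. The Spearman correlation between this share and the mean level was -0.31 over the 22 genes. Pcdhb21 and Pcdhb22 overlap by 455 bp on the same strand, so their levels are uncertain within that overlap, and 11.3% of the windows of Pcdhb21 were shared with other members. Pcdhb12 is also uncertain, since only 35.8% of its windows were unique once annotated genes without a row in the deposited table were counted.

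The beta genes were used unequally, with mean shares of the summed beta TPM from 0.015% for Pcdhb1 and 1.62% for Pcdhb13 to 13.6% for Pcdhb17. Pcdhb17 held between 12.3% and 14.9% of that sum in every library. The inverse Simpson number, which gives the number of equally used genes that would produce the same evenness, lay between 14.2 and 16.2, out of 22. The mean share of Pcdhb17 was 13.3% in WT, 13.9% in Het and 13.6% in Hom. For Pcdhb20 the shares were 9.29%, 9.15% and 8.13%, and for Pcdhb16 they were 6.58%, 7.11% and 7.66%. Shares were not tested.

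The alpha and gamma clusters were each represented by 1 row, and what those rows counted is only partly known. The alpha row (ENSMUSG00000007440) is named Pcdha11 in GENCODE M21 and spans positions 37005203 to 37187657. Another identifier carries the same symbol there, and the start of the row lies close to the start of Pcdha10 in RefSeq (37005320) and not to that of Pcdha11 (37010858). The gamma row (ENSMUSG00000023036) is named Pcdhgc4, a C-type member, and spans positions 37815079 to 37841873. The other 13 alpha and 21 gamma identifiers of M21 were not analysed here, and all of them are numbered above the last identifier of the table, ENSMUSG00000102132. The annotation release behind the table was not given in the sources used here. In M21, 2860 of the 5359 exonic bases of the alpha row and 2119 of the 5596 exonic bases of the gamma row are shared with other members. Reads from the constant exons of any alpha or gamma isoform could therefore have been counted in these rows, and they are called the alpha row and the gamma row here rather than single isoforms. The C-type genes Pcdhac1, Pcdhac2, Pcdhgc3 and Pcdhgc5 had no row of their own.

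In WT 1 to 5 the alpha row stood at 25.83, 29.83, 27.94, 39.96 and 28.07 TPM. Het 1 to 5 had 27.56, 31.12, 27.73, 35.67 and 31.35 TPM. Hom 1 to 4 had 27.44, 32.29, 28.24 and 27.73 TPM. The groups overlapped, and WT 4 stood above every other library. The means were 30.3 ± 5.57 TPM in WT (SD, n = 5), 30.7 ± 3.32 in Het (SD, n = 5) and 28.9 ± 2.27 in Hom (SD, n = 4). The log2 change was -0.07 in Hom against WT (SE 0.11, 95% interval -0.30 to 0.17, limma adjusted p 0.842) and 0.03 in Het against WT (SE 0.10, 95% interval -0.20 to 0.25, adjusted p 0.986).

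In WT 1 to 5 the gamma row stood at 194.81, 239.36, 202.40, 360.08 and 267.91 TPM. Het 1 to 5 had 243.25, 277.85, 232.52, 317.68 and 313.61 TPM. Hom 1 to 4 had 246.04, 276.58, 297.89 and 314.24 TPM. The lowest libraries were WT 1 and WT 3 and the highest was WT 4, so the WT libraries enclosed all others. The log2 change was 0.16 in Hom against WT (SE 0.10, 95% interval -0.06 to 0.37, limma adjusted p 0.501) and 0.16 in Het against WT (SE 0.09, 95% interval -0.05 to 0.36, adjusted p 0.846). Within batch 1 the Hom change was 0.30 (unadjusted p 0.0304, adjusted p 0.288), and within batch 2 it was -0.02 (adjusted p 0.951). The interaction of genotype and batch did not pass the threshold for the gamma row (unadjusted p 0.117 in Hom and 0.25 in Het). Without WT 4 the change was 0.26 in Hom (unadjusted p 0.00626, limma adjusted p 0.134), while the Het change was 0.25 with an adjusted p of 0.415 (unadjusted 0.00536), and without Hom 2 the Hom change was 0.095 (adjusted p 0.725). Each of these libraries moved the Hom estimate by over 1.5 times, in opposite directions, and neither brought it past the threshold.

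**Figure D2:**
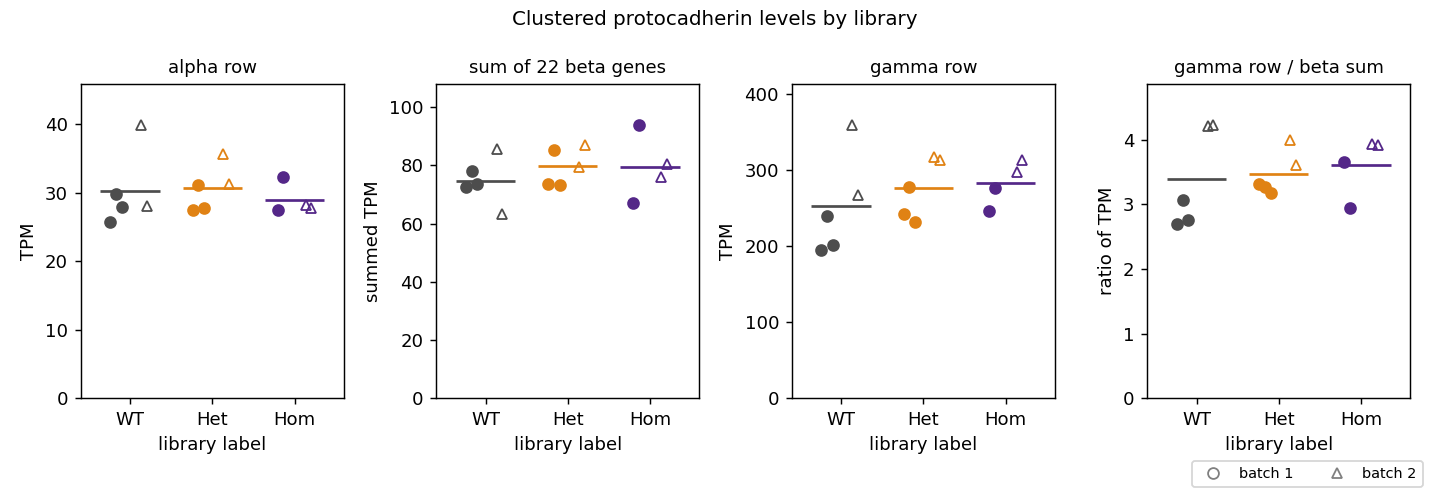
Level of the alpha row, summed level of the 22 beta genes, level of the gamma row (all in TPM) and the ratio of gamma row to beta sum in each library, by genotype label; filled circles are batch 1, open triangles batch 2, and lines the genotype means. Genotypes overlap in all panels, whereas the gamma row in batch 2 (268 to 360 TPM) lies above batch 1 (195 to 278 TPM) within each genotype.

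Between the batches the gamma row was higher in batch 2, at 312 ± 30.0 TPM (SD, n = 6) against 239 ± 30.1 in batch 1 (SD, n = 8), a log2 change of 0.38 (SE 0.08, 95% interval 0.21 to 0.55, limma adjusted p 0.00949). It was the only one of the 23 tested members called between the batches, where 13.5% of all genes tested were called. Within WT, Het and Hom alike, every batch 2 library lay above every batch 1 library, as was the case for 4.55% of all genes, and no member lay lower in batch 2 in this way, against 3.1% of all genes. The alpha row differed by 0.14 (95% interval -0.05 to 0.33, adjusted p 0.317), and the changes of the 21 beta genes lay between -0.10 and 0.18. The ratio of the gamma row to the beta sum was 2.69 to 3.66 in batch 1 and 3.61 to 4.23 in batch 2. Batch and strain label go together here except in Het 3, and cannot otherwise be told apart. When Het 3, which was deposited with the batch 2 libraries and carries their strain label, was placed in batch 2, the gamma row difference was 0.31 and lost its call (limma adjusted p 0.0954). Without any 1 library the change was between 0.30 and 0.41 and remained called. The 4 libraries with the lowest gamma row levels, WT 1, WT 3, Het 3 and WT 2, were also those with the lowest summed endothelial marker levels (27.7, 32.4, 21.1 and 37.7 TPM). They had the highest Purkinje cell sums (176, 147, 89.7 and 191 TPM) and the highest astroglial sums (1720, 1210, 1180 and 1900 TPM) as well. The part of these cells in the difference between the batches was not tested.

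The beta genes as a group did not separate the genotypes either. Their summed level was 74.5 ± 8.06 TPM in WT (SD, n = 5), 79.6 ± 6.33 in Het (SD, n = 5) and 79.3 ± 11.1 in Hom (SD, n = 4). The ratio of means to WT was 0.09 on the log2 scale for both Het and Hom. Leaving out 1 library at a time gave -0.0018 (without Hom 2) to 0.16 (without Hom 1) in Hom and 0.042 (without WT 5) to 0.15 (without WT 4) in Het. The sum was 85.5 TPM in WT 4 and 63.4 TPM in WT 5, both of batch 2, and 93.9 TPM in Hom 2 and 67.2 TPM in Hom 1, both of batch 1, so libraries of the same genotype and batch differed by more than the genotype means. These libraries stood at the ends of their groups for most genes. Of the 21 tested beta genes, Hom 2 was the highest Hom library for 15 and Hom 1 the lowest for 14, while WT 4 was the highest WT library for 14 and WT 5 the lowest for 12.

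Other-cell markers differed between the same libraries. The summed astroglial markers were at 900 TPM in WT 4 and 425 in WT 5, and the meningeal markers at 243 and 94.3. The endothelial markers were at 366 TPM in Hom 2 and 118 in Hom 1, and the oligodendroglial markers at 1210 and 522. In both pairs the library with more beta RNA also had more of these markers. The endothelial (225 and 127 TPM), oligodendroglial (1070 and 655) and microglial sums (333 and 143) were also higher in WT 4 than in WT 5. Hom 2 also exceeded Hom 1 in the microglial (260 and 221 TPM) and inhibitory interneuron sums (167 and 75.6). Between Hom 2 and Hom 1 the astroglial (563 and 550 TPM) and meningeal sums (214 and 194) differed less. Granule lineage (4440 and 4710 TPM) and inhibitory interneuron sums (117 and 120) were lower in WT 4 than in WT 5. The Purkinje cell sum was lower in Hom 2 than in Hom 1 (45.1 and 49.1 TPM) and higher in WT 4 than in WT 5 (48.8 and 43.5 TPM). The part of these cells in the difference was not tested. After genotype and batch were fitted, the levels of beta genes varied together between libraries: the median Pearson correlation over 210 pairs was 0.41, with 179 pairs above 0, against a median of 0.05 between beta genes and all other genes tested. It was 0.51 over the 20 pairs of neighbouring genes and 0.40 over the other 190. The alpha and gamma rows had a correlation of 0.88 with each other. All these correlations are over the same 14 libraries and share their composition and depth, and they are given as a description.

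No clustered protocadherin was called in Hom against WT, where 2.68% of the 17325 genes tested were called with limma. At an unadjusted p under 0.05 the count was 0 of 23 members, against 14.9% of all genes. The log2 changes lay between -0.08 and 0.29, with a median of 0.06 against 0.02 over all genes, and 15 of the 23 were above 0 (65.2%, against 55.5% of all genes). This balance moved with single libraries and with some of the settings. The number above 0 was 8 of 23 without Hom 2 and 18 without Hom 1 or without Hom 3. It was 10 with quantile normalization, 15 with median-ratio scaling and 9 with limma's weights for each library. The 95% intervals lay between -0.37 and 0.62, and for 19 of the 23 members the interval lay within 0.5 on either side of 0. In no member did the Hom libraries lie apart from the WT libraries, as they did for 4.87% of all genes.

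Pcdhb4 and Pcdhb16 had the smallest unadjusted p of the beta genes. Pcdhb4 was at 2.91, 2.73, 2.15, 2.99 and 1.78 TPM in WT 1 to 5, 2.91, 2.53, 2.48, 2.91 and 2.53 TPM in Het 1 to 5, and 3.29, 3.85, 3.59 and 2.39 TPM in Hom 1 to 4. Hom 1 to 3 lay above every WT library, and Hom 4 lay within them. The change in Hom was 0.29 (SE 0.15, 95% interval -0.03 to 0.62, unadjusted p 0.0724, limma adjusted p 0.391). Pcdhb16 was at 5.12, 5.22, 4.66, 5.37 and 4.14 TPM in WT 1 to 5, 5.48, 5.50, 6.31, 4.80 and 6.04 TPM in Het 1 to 5, and 4.96, 8.31, 4.98 and 6.31 TPM in Hom 1 to 4. Hom 2 and Hom 4 were above the WT libraries, and the other Hom libraries were among them. Its change was 0.26 (SE 0.14, 95% interval -0.04 to 0.57, unadjusted p 0.0855, limma adjusted p 0.418), and without Hom 2 it was 0.12. Pcdhb2, the third by this order, had a mean of 1.48 ± 0.274 TPM in WT (SD, n = 5) and 1.73 ± 0.216 in Hom (SD, n = 4), a change of 0.14 (95% interval -0.18 to 0.46, limma adjusted p 0.716).

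The 3 most abundant beta genes had changes closer to 0. For Pcdhb17 the Hom change was 0.10 (95% interval -0.18 to 0.39, limma adjusted p 0.785), and it was 0.001 without Hom 2 and 0.22 without Hom 1. Pcdhb20 had a change of -0.08 (95% interval -0.37 to 0.21, adjusted p 0.842), which ran from -0.17 without WT 5 to -0.0091 without Hom 1. Pcdhb22 had a change of -0.02 (95% interval -0.29 to 0.25, adjusted p 0.965). On the linear scale of TPM + 1 the Pcdhb22 interval runs from 0.816 to 1.19 times the WT level.

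**Figure D3:**
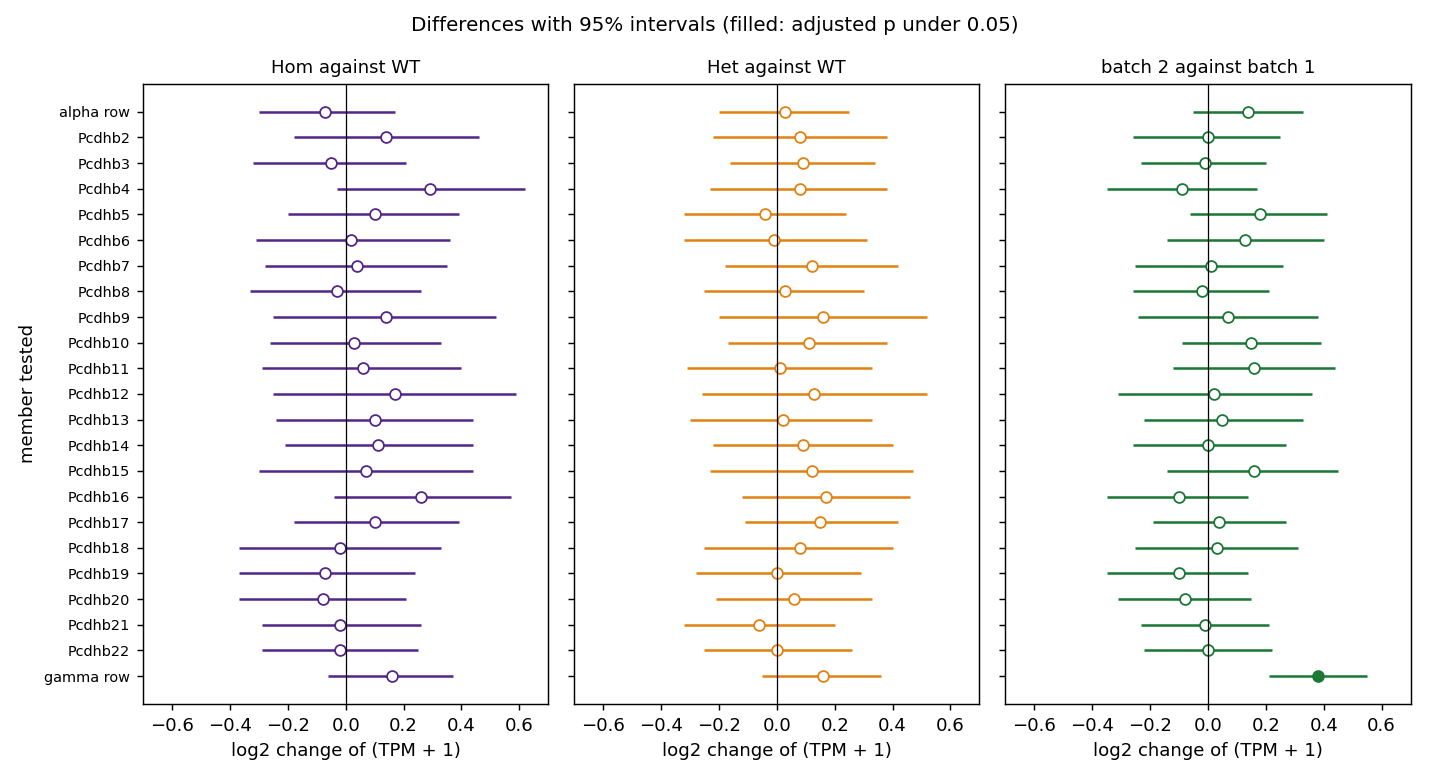
Log2 change of TPM + 1 with its 95% interval for the 23 members tested, in the libraries labelled Hom against WT, Het against WT and batch 2 against batch 1; filled points have an adjusted p under 0.05. All genotype intervals include 0, and the gamma row, at 0.38, is the only filled point in the batch panel.

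In Het against WT no member was called by limma, where 0.00577% of all genes were called, that is 1 gene. None of the 23 had an unadjusted p under 0.05, against 6.08% of all genes. The changes lay between -0.06 and 0.17, with a median of 0.08, and 20 of 23 were above 0 (87.0%, against 52.3% of all genes). Without WT 5, the WT library with the lowest beta sum, 13 of 23 were above 0 and 16 with limma's weights for each library. The 95% intervals lay between -0.32 and 0.52. In no member did the Het libraries lie apart from the WT libraries, as was the case for 1.04% of all genes. Both contrasts use the same WT libraries, so a low or high WT library moves them together.

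In Hom against Het no member was called by limma either, where 0.427% of all genes were called, and 0 of 23 had an unadjusted p under 0.05, against 6.18% of all genes. The changes lay between -0.14 and 0.22. Pcdhb3 was the only member whose libraries did not overlap in this contrast, as was the case for 2.16% of all genes. It was at 1.77, 1.63, 1.78, 1.61 and 1.96 TPM in Het 1 to 5 and at 1.58, 1.38, 1.49 and 1.54 TPM in Hom 1 to 4. Its WT libraries, from 1.38 to 1.82 TPM, covered most of both ranges. The log2 change in Hom against Het was -0.14 (95% interval -0.40 to 0.13, limma adjusted p 0.997).

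An interaction term tested whether the genotype effect was the same in both batches. No member passed at an adjusted or an unadjusted p under 0.05 in either contrast with limma. The smallest unadjusted p was 0.102 in Hom, for Pcdhb9 (adjusted p 0.387), and 0.155 in Het, for Pcdhb6 (adjusted p 0.648). Each genotype had 2 or 3 libraries in a batch, which limits the precision of this test.

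Transcripts for the proteins that organise and silence these clusters were measured in the same libraries. Of 23 genes for chromatin architecture and silencing, all 23 were tested and none was called in Hom or Het against WT with limma, and 3 had an unadjusted p under 0.05 in Hom and 0 in Het, where 14.9% and 6.08% of all genes did. Their median log2 change was 0.09 in Hom and 0.04 in Het. Ctcf, which binds the promoters of the clusters, was at 160 TPM and ranged from 146.65 to 176.42, with a change of 0.02 in Hom (adjusted p 0.943). Smchd1, a silencing protein that acts on these clusters, was at 71.6 TPM and changed by 0.09 (adjusted p 0.726). Dnmt3b, a DNA methyltransferase that methylates their promoters, was at 12.5 TPM and changed by 0.09 (adjusted p 0.821). Between the batches 6 of the 23 were called, where 13.5% of all genes were, among them Stag2, a cohesin subunit, with a change of -0.33 (limma adjusted p 0.0025).

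Of 19 genes for signalling and processing partners, such as the kinases Ptk2 and Fyn and the protease Adam10, which cleaves protocadherins at the membrane, all were tested and 0 were called in either contrast with limma, with 2 of the 19 at an unadjusted p under 0.05 in each, where 14.9% of all genes were in Hom and 6.08% in Het. Their median change was 0.03 in Hom and 0.08 in Het, and 3 of the 19 were called between the batches, where 13.5% of all genes were.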

How the data were processed

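RNA of freshly isolated GNPs was sequenced in 14 libraries (total RNA, single-end 50-base reads). The authors deposited 1 table of gene-level TPM, made with RSEM 1.2.15 and Bowtie 1.0.0 on an Ensembl mm10 transcriptome at default settings per the labels and methods. Default RSEM ignores strand, so antisense reads were not separated, and it divides reads shared by paralogs. Each TPM column summed to between 999999.14 and 1000000.79. TPM keeps no depth, and the study's methods give only an approximate read number common to all samples. The exact depth of each library is therefore unknown, and no counting interval was made. GENCODE M21 gave a symbol for all but 1127 of the 41381 identifiers.

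The 17325 genes that reached 1 TPM in 4 libraries or more were tested on the log2(TPM + 1) scale. This scale understates changes of low genes. Limma 3.58.1 in R 4.3.3 was fitted with genotype and batch over all 14 libraries (eBayes with a trend), with two-sided p adjusted by Benjamini-Hochberg over all genes in each contrast, and a gene was called at an adjusted p under 0.05. The fit was tested on simulated data. The study's ComBat and Kruskal-Wallis steps were not run. The labels do not say whether libraries of a group came from separate animals, so p-values measure the spread between libraries, which may be technical. Batches are from the study's methods.

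The members, lists and tests were chosen with earlier results of these data known. Members named with values were those called in a genotype contrast, the 3 highest and the 3 with the smallest Hom p in each cluster, C-type members and untested members, and others were named after their values were seen. Replicate numbers showed no clear pairing of the libraries, which was not excluded either.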

Additional observations from a re-analysis of the deposited data

Results flagged for a closer look

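The TPM values of the 23 tested members and of the summed beta cluster were examined in each genotype for a library far from the others (the gap to its nearest neighbour as a share of the group's range, against Dixon's 95% critical value). This flagged 6 of 72 groups, where chance alone flags about 1 in 20, and the members are not independent of each other. WT 4 stood apart in the alpha row, at 40 TPM against 25.8 to 29.8 in the other WT libraries, and in Pcdhb9, at 7.27 against 4.64 to 5.35. Hom 2 stood apart in the alpha row, at 32.3 TPM against 27.4 to 28.2, and in Pcdhb21, at 4.08 against 3.08 to 3.23. The last 2 were Hom 3 in Pcdhb2, at 2.05 TPM against 1.6 to 1.64, and Het 2 in Pcdhb13, at 1.58 against 1.1 to 1.18. Of the 6 flags, 4 fell on WT 4 and Hom 2, the libraries with the highest beta sum of their genotypes.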

How the results depend on the processing

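No alternative brought a clustered protocadherin past the threshold in any genotype contrast: 0 were called with a pseudocount of 0.1, either other filter, median-ratio scaling, quantile normalization, the replicate block, only the 2 genotypes compared, either batch alone, array weights, Het 3 in batch 2, or without any 1 library. With a mean TPM of at least 5 as the filter, 7 members were tested in place of 23. Same-numbered libraries showed no general tendency to deviate together (residual correlations from -0.23 to 0.26 over 13 pairs, 3 of them over 0.1). With so few libraries this cannot exclude that the numbers pair some of them. With the replicate block 259 genes in all were called in Hom against WT in place of 465, and 3 of 14 libraries correlated best with their own number. The median change of all genes in Hom against WT was between -0.004 and 0.038 over the alternatives. Depth could not be examined.

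Some changes turned sign, Chd7 among them, which was higher in Hom and Het than in WT in batch 1 alone, against the labels (unadjusted p 0.00716 and 0.0195, limma adjusted p 0.164 and 0.45). None was called, and the cause was not tested. In Hom against WT, the reversals in batch 1 alone were 0.094 for the alpha row and 0.41 for Chd7. In batch 2 alone they were -0.022 for the gamma row, 0.026 for Pcdhb22, -0.081 for Smchd1 and -0.22 for Dnmt3b. With array weights they were -0.024 for Pcdhb17 and 0.019 for Chd7, and with median-ratio scaling -0.015 for Ctcf. In Het against WT, they were -0.11 for Pcdhb22 and 0.3 for Chd7 in batch 1 alone. In batch 2 alone they were -0.0027 for the alpha row, -0.048 for Ctcf, -0.078 for Smchd1 and -0.22 for Dnmt3b. With array weights they were -0.0094 for Pcdhb20, -0.039 for Pcdhb22 and 0.0048 for Chd7. Median-ratio scaling gave -0.005 for Pcdhb22 and quantile normalization -0.0015 for Smchd1. Leaving out 1 library at a time gave, in Hom, -0.16 to 0.033 for the alpha row, -0.09 to 0.013 for Pcdhb22, -0.0094 to 0.062 for Ctcf and -0.22 to 0.087 for Chd7. In Het it gave -0.024 to 0.12 for the alpha row, -0.015 to 0.12 for Pcdhb20, -0.059 to 0.095 for Pcdhb22, -0.0022 to 0.15 for Pcdhb4, -0.028 to 0.072 for Smchd1, -0.036 to 0.11 for Dnmt3b and -0.22 to 0.075 for Chd7.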
